A study of Sus scrofa with 12 samples.

Results

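The Hedgehog pathway of the sow ovary was described here by 9 genes, read by their symbols from the gene table of 29884 rows. They were the ligands IHH and DHH, the receptor PTCH1, the ligand trap HHIP, the signal transducer SMO, the inhibitor SUFU and the transcription factors GLI1, GLI2 and GLI3. All 9 were found, with 1 row each. In this pathway a secreted ligand binds PTCH1, which otherwise holds SMO inactive. Active SMO then frees the GLI factors from SUFU, and GLI1, PTCH1 and HHIP are themselves switched on by GLI factors, so that their transcripts are the usual readout of the pathway. In the mammalian ovary, granulosa cells of growing follicles are known as the source of IHH and DHH, and theca cells around the follicle as the cells that respond.

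Left ovaries came from sows of a commercial herd, slaughtered 4 days after their 4th delivery, with no treatment. The small litter size group (SLS) held the ovaries ZD2, ZD3 and ZD12 of sows with 8.48 ± 0.53 piglets per litter, and the large litter size group (LLS) held ZD5, ZD7 and ZD8 of sows with 16.19 ± 0.43 piglets per litter (the labels do not name the error, and the study's methods give results in general as mean ± SEM). Each ovary gave 1 library of total RNA without ribosomal RNA, without pooling, and 6 small RNA libraries are titled with the same names. The labels give neither the breed nor the stage of the follicles, and whole ovaries mix all their cell types. In such bulk tissue, fewer cells of a type and less RNA per cell cannot be told apart.

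Gene levels were deposited as FPKM (reads scaled to transcript length and library size), which allows levels of different genes to be compared. The libraries held between 32272803 and 60903268 reads, and ZD8 was the shallowest. The LLS ovary ZD8 stood apart from the other 5. Its luteal marker genes summed to 124 FPKM against 9167.1 to 12190.7 FPKM in the others, and its oocyte marker genes to 153 FPKM against 6.77 to 26.0 FPKM. Of all 12260 genes tested, 44.6% had their highest level in ZD8. The group difference of each Hedgehog gene is therefore given with and without ZD8. Ovarian genes were present in each library, with FOXL2, a transcription factor of granulosa cells, at 6.11 to 37.8 FPKM and GDF9, a growth factor of the oocyte, at 5.41 to 40.6 FPKM.

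**Figure D1:**
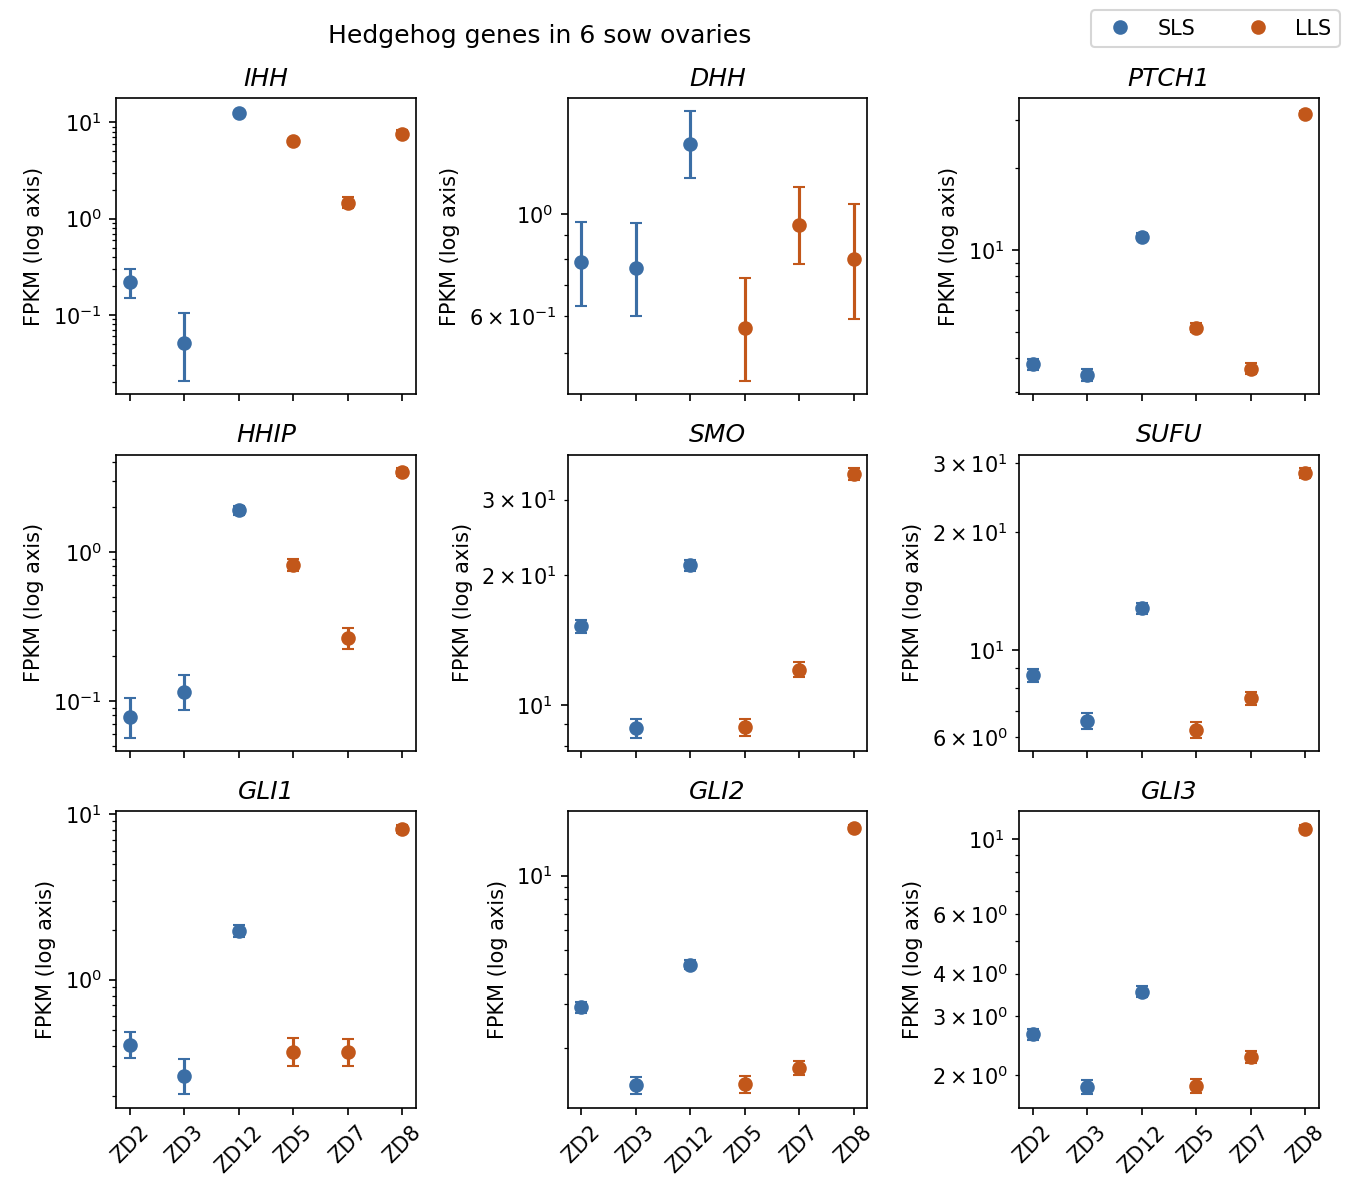
FPKM (log axis) of the 9 Hedgehog genes in each ovary, with SLS in blue and LLS in orange. Bars are exact Poisson 95% intervals of the reads, which cover counting error only, and 7 of the 9 genes have their highest point in ZD8.

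Of the ligands, IHH varied most of the 9 genes and DHH least, by the ratio of the highest to the lowest ovary. IHH (chromosome 15, 121083750 to 121090548, minus strand of Sscrofa11.1) encodes Indian hedgehog. Among SLS ovaries it was at 0.217 FPKM in ZD2, 0.051 FPKM in ZD3 and 12.4 FPKM in ZD12, and among LLS ovaries at 6.38 FPKM in ZD5, 1.46 FPKM in ZD7 and 7.64 FPKM in ZD8. The highest and the lowest ovary, both SLS, differed by 242.5 times, and the 3 LLS values lay between them. Only 7 reads lay behind the value of ZD3 (exact Poisson 95% interval 0.0206 to 0.105 FPKM), against 1737 reads in ZD12. ZD5 and ZD8 had 973 and 653 reads.

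DHH (chromosome 5, 15114524 to 15119610, minus strand) encodes desert hedgehog. It was low and even, at 0.785, 0.762 and 1.42 FPKM in the SLS ovaries and at 0.566, 0.949 and 0.798 FPKM in the LLS ovaries, from 49 to 143 reads. Its highest ovary, ZD12, exceeded the lowest by 2.51 times. SHH, the ligand of limb and neural tube, was listed at 0 in all 6 libraries, with 0 reads in each. This does not exclude a level too low for the depth of the libraries.

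The ligand that was more abundant per length was therefore not the same in every ovary. IHH made up 21.7% and 6.29% of the summed FPKM of IHH and DHH in ZD2 and ZD3, where DHH was the higher. It made up 60.7% in ZD7 and between 89.7% and 91.9% in ZD12, ZD5 and ZD8. Both groups held an ovary with an IHH share near 90%.

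PTCH1 and HHIP, which bind the ligands, were highest in ZD8 and next in ZD12. PTCH1 (chromosome 10, 26627165 to 26703225, plus strand, 7 annotated transcripts) was at 3.8, 3.48 and 11.2 FPKM in ZD2, ZD3 and ZD12 of SLS. For ZD5, ZD7 and ZD8 of LLS the levels were 5.19, 3.66 and 31.6 FPKM. The level in ZD8 was 2.83 times that of ZD12, which in turn was 2.16 times that of the next ovary, ZD5. The counting intervals of ZD8 (31.0 to 32.3 FPKM), ZD12 (10.9 to 11.5 FPKM) and ZD5 (4.98 to 5.40 FPKM) did not overlap, while that of ZD7 overlapped those of ZD2 and ZD3.

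HHIP (chromosome 8, 83583735 to 83678368, minus strand) encodes a membrane protein that captures Hedgehog ligands. It was at 0.078, 0.115 and 1.90 FPKM in ZD2, ZD3 and ZD12 and at 0.814, 0.262 and 3.42 FPKM in ZD5, ZD7 and ZD8. From the highest to the lowest the order was ZD8, ZD12, ZD5, ZD7, ZD3 and ZD2, a range of 43.9 times. ZD12, ZD8, ZD5 and ZD7 were also the 4 highest ovaries for IHH, in that order. In ZD2 and ZD3 the values of HHIP rested on 44 and 55 reads, and their counting intervals overlapped.

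The GLI consensus, GACCACCCA on either strand (TGGGTGGTC), was searched in the Sscrofa11.1 reference around annotated gene starts, and PTCH1 is shown because it held a match next to its start. The match begins 101 bases after the annotated start, at chr10:26627266-26627274 on the plus strand, and lies in an untranslated exon of 1 of the 7 PTCH1 transcripts and outside the other 6. A second match lies 4394 bases after the start, at chr10:26631559-26631567, in an intron of the same number of transcripts. The sites are printed along the strand of the gene with the match in capitals and 10 bases on each side.
PTCH1 near start: tggcgcggcaGACCACCCAcgccgagggc
PTCH1 second: cctcagccctGACCACCCAagtcgagcag
Within 1000 bases of the start on either side, 1.6% of 19528 protein-coding genes held the 9 letters, and PTCH1 was the only one of the 9 Hedgehog genes to do so. Within 5000 bases on either side the share was 7.21% of all genes, and PTCH1 was again the only one of the 9. In the 250 bases before and 50 bases after the start, 0 of the 9 genes and 0.251% of all genes held it. A match describes the sequence and does not show binding.

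SMO, the transducer, was the most abundant of the 9 genes and the least variable of those above 1 FPKM in each ovary. SMO (chromosome 18, 19450730 to 19478796, minus strand) was at 15.2, 8.81 and 21.1 FPKM in ZD2, ZD3 and ZD12 and at 8.86, 12.1 and 34.4 FPKM in ZD5, ZD7 and ZD8. Its range was 3.91 times, with ZD8 and ZD12 highest. SUFU (chromosome 14, 113500001 to 113628064, plus strand) encodes the cytoplasmic partner that restrains the GLI factors. It was at 8.62, 6.60 and 12.8 FPKM in ZD2, ZD3 and ZD12 and at 6.26, 7.53 and 28.3 FPKM in ZD5, ZD7 and ZD8. ZD8 exceeded the next ovary, ZD12, by 2.21 times.

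The GLI genes were highest in ZD8 and next in ZD12. GLI1 (chromosome 5, 22736325 to 22747421, plus strand), an activator whose own transcription depends on the pathway, was at 0.405, 0.262 and 1.97 FPKM in ZD2, ZD3 and ZD12. In ZD5, ZD7 and ZD8 it was at 0.368, 0.364 and 8.14 FPKM. The level in ZD8 was 4.14 times that of ZD12, and that of ZD12 was 4.85 times that of the next ovary, ZD2. The other 4 ovaries held 69 to 126 reads each, and the intervals of ZD2, ZD5 and ZD7 overlapped.

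GLI2 (chromosome 15, 30312528 to 30580272, minus strand), the main activator at the start of the response, was at 2.92, 1.41 and 4.36 FPKM in ZD2, ZD3 and ZD12 and at 1.42, 1.66 and 15.6 FPKM in ZD5, ZD7 and ZD8. GLI3 (chromosome 18, 52403463 to 52697906, plus strand), mostly a repressor in the absence of ligand, was at 2.64, 1.85 and 3.54 FPKM in ZD2, ZD3 and ZD12 and at 1.86, 2.27 and 10.7 FPKM in ZD5, ZD7 and ZD8. Both genes had the same order of ovaries as SMO, with ZD8, ZD12, ZD2, ZD7, ZD5 and ZD3 from high to low, of which ZD5 and ZD3 were nearly equal. ZD8 exceeded the next ovary by 3.58 times for GLI2 and by 3.04 times for GLI3.

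GLI1 took a larger share of the 3 GLI genes in ZD8 and ZD12. Its share of their summed FPKM was 23.6% in ZD8 and 19.95% in ZD12, and between 6.79% and 10.1% in the other 4 ovaries. GLI3 had its lowest shares in those same ovaries, at 31.2% and 35.9%, against 44.3% to 52.9% elsewhere. The ratio of PTCH1 to SMO, a receptor whose gene responds to the pathway against one whose gene is not a usual target, was 0.919 in ZD8. It was 0.586 in ZD5, 0.531 in ZD12 and between 0.250 and 0.395 in ZD2, ZD3 and ZD7. ZD5 thus had an IHH level of 6.38 FPKM and the second highest ratio of PTCH1 to SMO, with a GLI1 level (0.368 FPKM) like that of ZD2 and ZD7. Ratios within 1 library do not depend on its depth, and each rests on 1 ovary without replicate error.

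**Figure D2:**
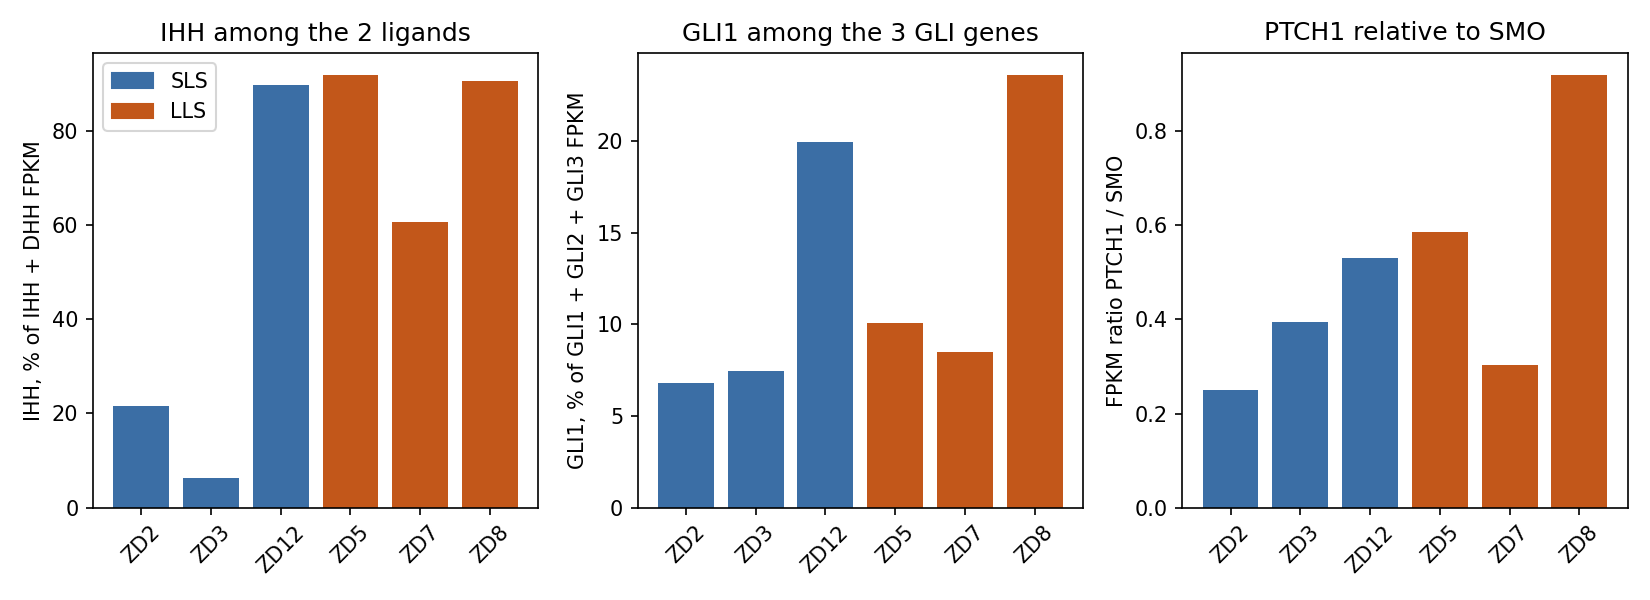
IHH as a percent of IHH and DHH, GLI1 as a percent of the 3 GLI genes, and the ratio of PTCH1 to SMO, all from FPKM, 1 bar per ovary (blue SLS, orange LLS). GLI1 reaches 23.6% in ZD8 and 19.95% in ZD12 and at most 10.1% in the other 4 ovaries.

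By mean level over the 6 ovaries (± SD, n = 6), the order was SMO (16.8 ± 9.81 FPKM), SUFU (11.7 ± 8.48), PTCH1 (9.83 ± 11.08), IHH (4.69 ± 4.96), GLI2 (4.56 ± 5.52), GLI3 (3.82 ± 3.45), GLI1 (1.92 ± 3.12), HHIP (1.10 ± 1.33) and DHH (0.880 ± 0.292). SMO was above SUFU, and GLI3 above GLI1, in 6 of 6 ovaries. SUFU was above PTCH1, and GLI1 above HHIP, in 5 of 6, and PTCH1 above IHH in 4 of 6. IHH and GLI2, GLI2 and GLI3, and HHIP and DHH kept no order, with the first above the second in 2, 3 and 3 of 6 ovaries.

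ZD8 had the highest level of 7 of the 9 genes, all but the ligands IHH and DHH, which were highest in ZD12. Of all tested genes, 44.6% were highest in ZD8. ZD8 exceeded the next ovary by more than 2 times for 5 of the 9 genes (PTCH1, GLI1, GLI2, GLI3 and SUFU), as it did for 10.3% of tested genes. For 8 of the 9 genes, all but DHH, both ZD8 and ZD12 were above each of the other 4 ovaries, a pattern that 29.3% of all 12260 tested genes and 31.4% of the 23564 genes above 0 also had. ZD8 came first and ZD12 second for 7 of the 9, and for 25.4% of tested genes. In counts chosen after seeing the data, ZD12 had the highest level of 9 of the 9 genes once ZD8 was left out, as did 39.6% of tested genes. Once ZD12 was left out, ZD8 had the highest level of 8 of the 9, as did 48.5% of tested genes. The pattern was thus common in these libraries, and it crosses the groups, since ZD12 is SLS and ZD8 is LLS.

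The comparison of LLS with SLS asks which Hedgehog genes differ with litter size. Fitted with limma (trended variance, log2(FPKM + 1) scale), for genes with at least 1 FPKM in at least 3 libraries, 0 of 12260 genes (0%, and 0.171% without ZD8) passed an adjusted p of 0.05 with an absolute log2 fold change over 1. At an unadjusted p under 0.05 there were 216 genes (1.76%), while DESeq2 on the recovered reads called 21 genes and edgeR 0. Of the 9 Hedgehog genes, 6 passed the filter (IHH, PTCH1, SMO, GLI2, GLI3 and SUFU), and 0 of these were called by limma, by DESeq2 or by edgeR, with 0 at an unadjusted p under 0.05. DESeq2 gave no p for IHH and GLI1 because of outlying counts. The SLS and LLS values overlapped for all 9 genes, while they did not overlap for 5.12% of the tested genes.

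For IHH the mean was 4.22 ± 7.08 FPKM in SLS and 5.16 ± 3.27 FPKM in LLS (SD, n = 3 ovaries each). limma gave a log2 fold change of 1.07, with a standard error of 0.95 and an adjusted p of 0.999. This value moved with the ovaries and the scale. It was 0.52 without ZD2, 0.42 without ZD3, 1.63 without ZD7, 0.13 with array weights, 0.39 by DESeq2, 0.38 by edgeR, 1.67 on TPM and 2.34 with a pseudocount of 0.1. Without ZD12 it became 2.25 with a standard error of 0.57 (limma, unadjusted p = 0.0049 and adjusted p = 1), and the 3 LLS ovaries were then above both remaining SLS ovaries. Without ZD8 it was 0.73 (standard error 0.95).

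For PTCH1 the mean was 6.16 ± 4.37 FPKM in SLS and 13.5 ± 15.7 FPKM in LLS, with a log2 fold change of 0.61 (standard error 0.73, adjusted p = 0.999 by limma). Without ZD8 the LLS mean was 4.43 FPKM and the log2 fold change turned to -0.25 (standard error 0.42). GLI2 went from 0.36 (standard error 0.72) to -0.54 (standard error 0.34) without ZD8, GLI3 from 0.41 to -0.24, SMO from 0.13 to -0.42 and SUFU from 0.28 to -0.35. The direction of these 5 genes thus turned without 1 LLS ovary, and that of SMO also without the SLS ovary ZD3 (-0.19). With all 6 ovaries the 6 tested genes had a log2 fold change above 0, as did 52.6% of all tested genes, and without ZD8 only that of IHH was. The adjusted p of each of the 6 tested genes was 0.999 by limma.

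DHH, GLI1 and HHIP were below the filter, with at least 1 FPKM in 1, 2 and 2 libraries. Without the filter, the log2 fold change was -0.16 for DHH (standard error 0.22), 0.57 for GLI1 (standard error 0.84) and 0.51 for HHIP (standard error 0.61), each with an adjusted p of 0.993 by limma. GLI1 had a mean of 0.878 ± 0.946 FPKM in SLS and 2.96 ± 4.49 FPKM in LLS, and of 0.366 FPKM in LLS without ZD8, where its log2 fold change was -0.35. Without ZD8 that of HHIP was -0.0021 and that of DHH -0.17. Exact two-sided permutation tests of the 9 genes over the 6 ovaries gave p between 0.4 and 0.9, where 0.1 is the smallest that 3 ovaries against 3 allow.

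**Figure D3:**
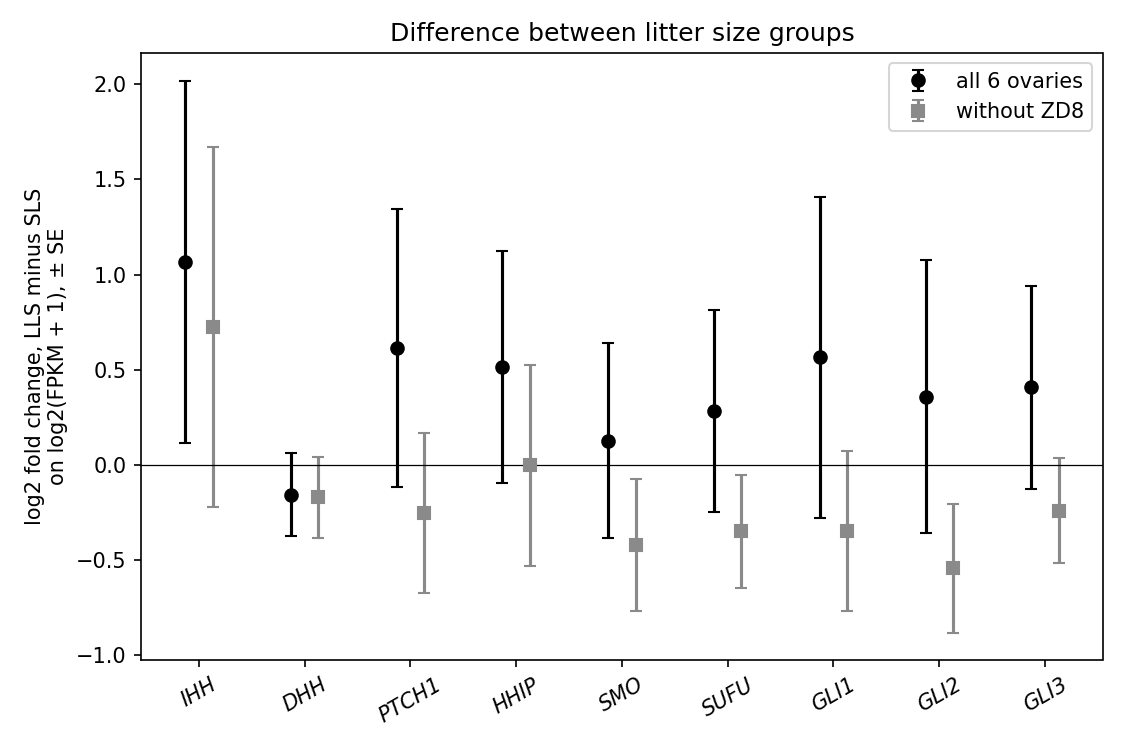
Log2 fold change of LLS minus SLS on log2(FPKM + 1) with its standard error from limma, for the 9 Hedgehog genes with all 6 ovaries (circles) and without ZD8 (squares). The values of PTCH1, SMO, SUFU, GLI1, GLI2, GLI3 and HHIP lie above 0 with ZD8 and below 0 without it.

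The genes nearest to IHH over the 6 ovaries were sought by the root mean square difference of log2(FPKM + 1), each gene centred on its mean, among the 12260 tested genes. The 3 nearest were CHST8, a sulfotransferase of hormone sugar chains (0.43), HSD17B1, the granulosa enzyme that reduces estrone to estradiol (0.48), and INHBB, a subunit of activin B and inhibin B (0.51), where the median over all genes was 1.39. HSD17B1 was at 6.70, 4.18 and 109 FPKM in ZD2, ZD3 and ZD12 and at 22.7, 19.1 and 40.2 FPKM in ZD5, ZD7 and ZD8. This is the order of ovaries that IHH had, from ZD12 at the top to ZD3 at the bottom. Of the other 5 Hedgehog genes that passed the filter, PTCH1 was the nearest to IHH, at 0.98, while DHH, GLI1 and HHIP were not compared.

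**Figure D4:**
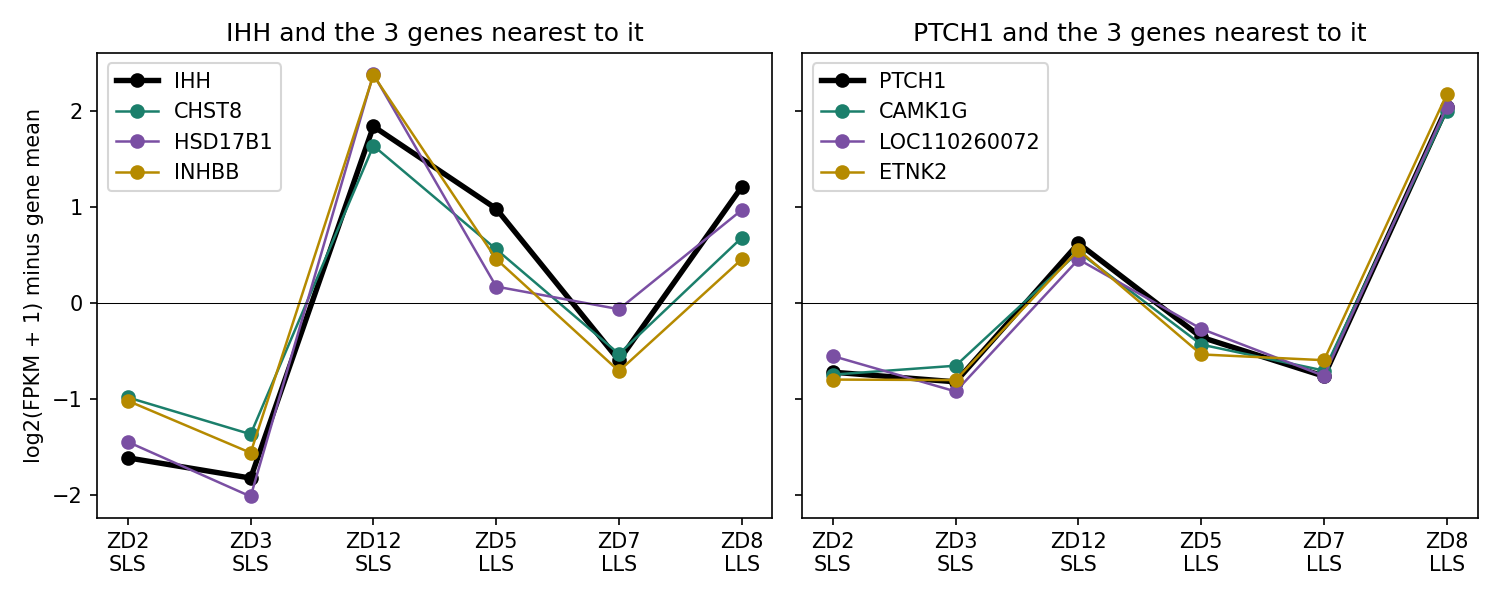
Centred log2(FPKM + 1) of IHH (left) and PTCH1 (right) in each ovary with the 3 tested genes nearest to each. IHH and its neighbours peak in ZD12, while PTCH1 and its neighbours peak in ZD8.

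PTCH1 had CAMK1G (0.089), LOC110260072 (0.11) and ETNK2 (0.12) as its nearest genes, against a median of 0.967. CAMK1G, a calcium-dependent kinase, was at 15.0 FPKM in ZD8 and 4.77 FPKM in ZD12. For GLI2 the nearest were the thyroid hormone receptor THRA (0.051), the sulfatase SULF2 (0.052) and the cytokine receptor IL11RA (0.094). For GLI3 they were ADGRL1, ZNF202 and PLEKHF1 (0.057 to 0.066), for SUFU E4F1, CAND2 and SLC1A4 (0.050 to 0.077), and for SMO KLHL21, WTIP and AGAP3 (0.055 to 0.076). Among the 6 Hedgehog genes that passed the filter, GLI3 and SUFU were the closest pair, at 0.092. Such nearness over 6 ovaries is a description, since many genes follow ZD8.

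The wider pathway was read from 5 lists, with 0 genes called by limma in each and 0 at an unadjusted p under 0.05. Of the 9 genes for ligands and their release, 6 were tested, 5 higher and 1 lower in LLS, with a median log2 fold change of 0.64 (0.06 without ZD8), where the median of all tested genes was 0.02 (-0.10 without ZD8). SCUBE1 and SCUBE3, secreted proteins that help release the ligand, had log2 fold changes of 1.06 and 0.91, and of 0.17 and 0.33 without ZD8. In ZD8 they were at 13.1 and 5.90 FPKM. DISP1, the transporter that exports the ligand, was the most abundant at a mean of 7.18 FPKM and was lowest in ZD8 (5.47 FPKM against 7.03 to 8.31). HHAT, which attaches the palmitate of the ligand, reached 7.99 FPKM in ZD8 and 1.55 to 3.49 FPKM elsewhere.

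Of the 10 genes for receptors, coreceptors and ligand traps, 8 were tested, 4 higher and 4 lower, with a median of -0.07 (-0.31 without ZD8). The coreceptors GAS1 and CDON were the most abundant, at 35.1 and 21.1 FPKM in the mean, with log2 fold changes of -0.53 and 0.02, and of -1.004 and -0.22 without ZD8. LRP2, an endocytic receptor, had the smallest p of the list (log2 fold change -0.96, unadjusted p = 0.071 by limma, and -1.22 without ZD8). It was at 5.25, 0.950 and 2.42 FPKM in SLS and 0.595, 0.384 and 1.58 FPKM in LLS. MGRN1, a ubiquitin ligase that lowers SMO at the cell surface, had a mean of 17.9 FPKM.

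Of the 23 genes for SMO and its cilium partners, all 23 were tested, 16 higher and 7 lower, with a median of 0.09 (-0.16 without ZD8). The most abundant were GNAS, the stimulatory G protein subunit (149 FPKM in the mean), TULP3 (21.4 FPKM) and RAB23 (19.8 FPKM), and the smallest p belonged to KIF3B, a motor of the cilium (log2 fold change 0.26, and 0.10 without ZD8), and ADCY5, an adenylate cyclase (0.55, and -0.16 without ZD8). Of the 19 genes for GLI factors and their control, 18 were tested, 15 higher and 3 lower, with a median of 0.14 (-0.02 without ZD8). The regulatory subunit PRKAR1A of protein kinase A, which phosphorylates GLI factors, was at 82.4 FPKM in the mean, CSNK1A1 at 22.6 FPKM and the catalytic subunit PRKACA at 21.8 FPKM. NUMB, an adaptor that directs GLI1 to degradation, and SPOP, an adaptor that does so for GLI2 and GLI3, had log2 fold changes of 0.33 and 0.25, and of 0.26 and 0.23 without ZD8. NUMB was the 1 of the 18 tested genes of this list whose groups did not overlap, beside 5.12% of all tested genes, with 12.4 to 15.57 FPKM in SLS and 15.58 to 19.0 FPKM in LLS.

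Of the 18 known target genes, 11 were tested, 8 higher and 3 lower, with a median of 0.10 (-0.36 without ZD8). The most abundant were the cyclin CCND2, the nuclear receptor NR2F2 and the cyclin CCND1, at 53.8, 44.1 and 24.1 FPKM in the mean. CCND2 and NR2F2 were highest in ZD8, at 99.2 and 80.3 FPKM, while CCND1 was lowest there (8.94 FPKM against 22.3 to 32.7). MYCN (log2 fold change 0.50, and 0.28 without ZD8) and FOXM1 (-0.32, and -0.34 without ZD8) had the smallest p. BCL2, a survival factor named after its values were seen, reached 28.7 FPKM in ZD8 and 2.52 to 6.40 FPKM elsewhere. HAND2, a factor of uterine stroma, was at or under 0.043 FPKM in all ovaries.

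Marker genes of ovarian cell types also differed between the ovaries, and their part in the Hedgehog levels was not tested. Of 10 granulosa markers, 9 were tested and 3 of these were highest in ZD8, beside 44.6% of all tested genes. FSHR, the receptor of follicle-stimulating hormone, was at 0.263, 0.202 and 4.5 FPKM in SLS and at 2.68, 1.11 and 10.8 FPKM in LLS. AMH, a hormone of growing follicles, was at 0.207, 0.346 and 7.21 FPKM in SLS and at 1.69, 1.82 and 12.0 FPKM in LLS. Both were lowest in ZD2 and ZD3, the ovaries with the least IHH, as were HSD17B1, INHBB and INHBA, so that 5 of the 9 tested markers had their lowest levels there, beside 4.89% of all tested genes in a count made after seeing the data. HSD17B1 and INHBB had been chosen as the genes nearest to IHH, and INHBA was nearly as low in ZD8 (2.91 FPKM) as in ZD3 (2.90 FPKM). The other 4 (FOXL2, INHA, AMHR2 and FST) did not. INHA, the inhibin alpha subunit, was at 553, 376 and 726 FPKM in SLS and at 285, 162 and 66.4 FPKM in LLS, the 1 of 9 whose groups did not overlap, beside 5.12% of all tested genes (unadjusted p = 0.012 and adjusted p = 0.999 by limma). FST, the activin antagonist follistatin, was lowest in ZD8 (32.0 against 119 to 249 FPKM), and AMHR2, the receptor of AMH, was highest in ZD2 (6.16 FPKM) and lowest in ZD5 (1.51 FPKM). CYP19A1, the aromatase of large follicles, was listed at 0 in 5 of 6 ovaries. The summed list was at 614 to 1091.0 FPKM in SLS and 230 to 586 FPKM in LLS, with its lowest sum in ZD8, and was led by INHA and FST.

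Of 8 theca markers, 7 were tested and 5 of these were highest in ZD8, beside 44.6% of all tested genes. The 8 summed to 211 to 299 FPKM in SLS and 163 to 734 FPKM in LLS. INSL3, a peptide of theca cells, was at 6.0, 4.82 and 45.1 FPKM in ZD2, ZD3 and ZD12 and at 11.6, 2.28 and 298 FPKM in ZD5, ZD7 and ZD8. It was highest in ZD8 and next in ZD12, as GLI1 was. PDGFRA was at 220 FPKM in ZD8 and 93.9 to 123 FPKM elsewhere, and LHCGR, the receptor of luteinizing hormone, was at 27.8, 70.5 and 46.1 FPKM in SLS and at 22.5, 24.2 and 10.4 FPKM in LLS. The groups did not overlap for 2 of the 7, beside 5.12% of all tested genes. These were LHCGR and ANPEP, a membrane peptidase, at 9.62, 8.09 and 9.16 FPKM in SLS and 1.90, 2.44 and 5.58 FPKM in LLS (unadjusted p = 0.018 and 0.0059, each with an adjusted p of 0.999 by limma). ANPEP was highest in ZD2. Of 12 oocyte markers, 11 were in the table and 3 were tested. All 11 were highest in ZD8, beside 44.6% of all tested genes. For 10 of them ZD12 was next, an order that 25.4% of tested genes had. ZP3, of the coat of the oocyte, was at 40.4 FPKM in ZD8, 5.38 FPKM in ZD12 and 0.179 to 2.07 FPKM in the others.

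Further lists were read for other cells known to make or answer Hedgehog ligands. The 7 Schwann cell markers, of cells known to make DHH, summed to 7.06 to 17.3 FPKM in SLS and 7.12 to 50.1 FPKM in LLS, and S100B took most of the sum. All 7 were highest in ZD8, beside 44.6% of all tested genes, though only 2 of the 7 passed the filter. The 7 smooth muscle markers were at 680 to 1879.5 FPKM in SLS and 331 to 959 FPKM in LLS, led by ACTA2 and TAGLN. ACTG2, an actin of visceral smooth muscle, was the 1 of 7 tested whose groups did not overlap, beside 5.12% of all tested genes. It was at 30.5 to 77.6 FPKM in SLS and 15.4 to 27.8 FPKM in LLS. Its log2 fold change was -1.27 (unadjusted p = 0.013 and adjusted p = 0.999 by limma). Of the 7, MYH11 alone had a log2 fold change above 0 (0.28). MYH11 reached 190 FPKM in ZD8, against 15.5 to 47.1 FPKM elsewhere. The 8 endothelial markers were at 350 to 420 FPKM in SLS and 162 to 480 FPKM in LLS, with their lowest sum in ZD8. PECAM1 was at 87.7 to 105 FPKM in SLS and 25.4 to 86.0 FPKM in LLS. It was the 1 of 8 tested whose groups did not overlap, beside 5.12% of all tested genes. Of the 8, 6 had a log2 fold change below 0 and 2 above, among the latter VWF (0.17). The 6 stroma genes, led by COL3A1, were at 3707.4 to 9530.5 FPKM in SLS and 3231.9 to 4746.5 FPKM in LLS. The 7 epithelial markers in the table were at 6.29 to 31.0 FPKM in SLS and 17.1 to 55.6 FPKM in LLS. Of the 5 tested, 2 did not overlap between the groups, beside 5.12% of all tested genes. EPCAM, an adhesion protein of epithelia, was at 0.312, 0.339 and 1.28 FPKM in SLS and 27.8, 9.72 and 2.31 FPKM in LLS (log2 fold change 2.66, unadjusted p = 0.005 and adjusted p = 0.999 by limma). MARVELD2, of epithelial junctions, was at 0.490, 0.304 and 2.42 FPKM in SLS and 23.0, 12.7 and 2.62 FPKM in LLS (log2 fold change 2.50, unadjusted p = 0.0064 and adjusted p = 0.999 by limma). The other 3 tested had log2 fold changes below 0, among them KRT19 (-1.47, unadjusted p = 0.051 by limma). KRT18, below the filter, was lower in LLS without overlap (0.237 to 6.30 FPKM in SLS against 0 to 0.151 FPKM in LLS). The 7 immune markers were at 21.8 to 34.7 FPKM in SLS and 22.3 to 48.4 FPKM in LLS, led by CSF1R and CD163. All 7 immune markers were highest in ZD8, beside 44.6% of all tested genes.

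Small RNA libraries titled with the same ovary names gave the levels of 3 miRNAs that are known to repress SMO, and of which miR-324-5p is also known to act on GLI1. The miRNAs are printed as DNA letters from the deposited table, with the seed (bases 2 to 8) in capitals, and no seed was shared.
miR-125b: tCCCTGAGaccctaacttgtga
miR-326: cCTCTGGGcccttcctccag
miR-324: cGCATCCCctagggcattggtgt
In the untranslated end of the longest SMO transcript (1117 bases), the seed match of miR-125b, CTCAGGG, occurs once, at chr18:19451621-19451627 on the minus strand, printed as a site of 29 bases with the match in capitals.
SMO site: aggccctggagCTCAGGGtccttgtttct
Of 18571 genes with such an end, 15.6% held this match, 19.7% that of miR-326 and 7.35% that of miR-324. The matches of miR-326 and miR-324 did not occur in this stretch of SMO, and that of GLI1 (198 bases) held none of the 3. Of the other Hedgehog genes, the ends of PTCH1 and GLI3 held 1 match of miR-125b each and that of SUFU 2, those of GLI2 and GLI3 held 2 and 1 of miR-326, and that of SUFU held 1 of miR-324, while those of IHH, DHH and HHIP held none. The SMO site is shown because SMO is a known target of miR-125b. These letters show no binding.

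The level of miR-125b was 10019.1, 22909.8 and 45390.6 RPM (reads scaled to library size) in the SLS columns named ZD2, ZD3 and ZD12, and 15967.6, 14288.4 and 34931.7 RPM in the LLS columns named ZD5, ZD7 and ZD8. Its highest column was thus of SLS and its next of LLS. The levels of miR-326 were 13.2, 22.6 and 12.3 RPM in SLS and 30.3, 11.7 and 16.7 RPM in LLS, and those of miR-324 were 11.5, 23.2 and 11.5 RPM in SLS and 22.2, 10.04 and 9.21 RPM in LLS, from 67 to 187 reads per value. None was called by limma (log2 fold changes of -0.13, 0.22 and -0.17, each with an adjusted p of 0.997), where 0 of 353 miRNAs (0%) were.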

How the data were processed

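For the 6 gene libraries the authors filtered reads by NGSQCToolkit, aligned them by HISAT2 against Sscrofa11.1 and gave levels as FPKM. For the small RNA libraries the authors deposited reads scaled to library size (RPM) under the name TPM, and the submitters' processing notes name BWA. The program that counted reads on genes, its strand setting and the annotation are not given in the sources used here. Of the members, GLI1, HHIP, PTCH1 and SUFU overlap an annotated gene on the opposite strand by 76, 451, 4238 and 1151 bases. These 4 neighbours were at most at 2.07 FPKM. That value belongs to the neighbour of HHIP, which was at 0.243 to 2.07 FPKM and highest in ZD8. HHIP itself was at 0.078 to 3.42 FPKM. Whether reads of the neighbour add to those of HHIP was not tested.

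Whole reads were recovered from FPKM with the longest annotated transcript, within 0.001 of a whole read, for 23463 of 23564 genes above 0 (99.6%), among them the 9 Hedgehog genes. All 2618 miRNA values above 0 were whole reads. Small RNA depth was 3537619 to 9854086 reads.

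limma 3.58.1 (R 4.3.3), with a trended variance and Benjamini-Hochberg adjustment over all features tested, compared 3 LLS with 3 SLS ovaries on log2(value + 1), keeping features that reached 1 FPKM or RPM in 3 or more libraries. This scale understates the change of low genes. The alternatives were a pseudocount of 0.1, no filter, rescaling to TPM, array weights, DESeq2 1.42.0 and edgeR 4.0.16 (quasi-likelihood) on recovered reads, and leaving out each ovary. Leaving out ZD8 for the named pathway genes was added after seeing the data. The limma fit of genes, and no other test, was also run on simulated reads. Its outcome is not reported here, so it gives no measure of what 3 against 3 ovaries would miss. Named were the 9 members, the 3 tested genes nearest to each tested member, the 2 genes of smallest p and 3 of highest mean of each pathway list, and genes among the 3 of highest mean of each marker list. HAND2, BCL2, FOXL2, FSHR, AMH, AMHR2, INHBA, CYP19A1, ANPEP, ACTG2, KRT18 and SHH fall outside this rule and were chosen after their values were seen. The members and lists were chosen with earlier results of these data known. Sequences were read from the RefSeq Sscrofa11.1 reference. All 12 value columns were used, and the small RNA columns, which bear the ovary names, were placed by group.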

Additional observations from a re-analysis of the deposited data

How the results depend on the processing

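The count of genes called between LLS and SLS was 0, and 13 with array weights, 21 by DESeq2 on recovered reads, and 0 to 21 with each ovary left out, where only the fit without ZD8 called any. None of the Hedgehog genes was called in any fit. With array weights the log2 fold change turned to -0.43 for PTCH1, -0.58 for SMO, -0.28 for GLI1, -0.67 for GLI2, -0.30 for GLI3 and -0.45 for SUFU. With each ovary left out in turn it ran from 0.42 to 2.25 for IHH, -0.24 to -0.0080 for DHH, -0.25 to 1.15 for PTCH1, -0.42 to 0.50 for SMO, -0.35 to 1.02 for GLI1, -0.54 to 0.84 for GLI2, -0.24 to 0.78 for GLI3, -0.0021 to 0.98 for HHIP and -0.35 to 0.66 for SUFU. For SMO the fit without ZD3 (-0.19) also turned it. The miRNA count was 0 in all fits, and with each ovary left out miR-125b ran from -0.69 to 0.40, miR-326 from -0.14 to 0.52 and miR-324 from -0.55 to 0.14. The cause was not tested for any of these shifts. The other alternatives kept the directions of the 9 genes but not their sizes. By DESeq2 and edgeR the log2 fold change was 1.45 and 1.38 for GLI1, 0.97 and 0.99 for GLI2, 0.78 and 0.80 for GLI3, 1.04 and 1.06 for PTCH1, 0.23 and 0.25 for SMO, 0.50 and 0.52 for SUFU, 0.97 and 0.90 for HHIP, and -0.38 and -0.43 for DHH. With a pseudocount of 0.1 it was 1.31 for HHIP, -0.30 for DHH and 2.34 for IHH, and with array weights 0.16 for HHIP and 0.13 for IHH. On TPM it was 0.84 for HHIP and 1.67 for IHH. No paired analysis was possible because the labels pair no ovaries across the groups. Values of GLI1, DHH and HHIP under 1 FPKM, and of IHH in ZD2 and ZD3, rest on 7 to 434 reads.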
